A study of Mus musculus with 9 samples.

Results

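The acetylated regions described here carried an H3K27ac peak in both oligodendrocyte progenitor cells (OPCs) and oligodendrocytes (OLs) of the mouse epiblast stem cell line 129O1, and no H3K27ac peak in either state of the line EpiSC5. They were chosen by that rule: the 4 deposited H3K27ac peak lists were merged where peaks shared at least 1 bp on chromosomes 1 to 19, and regions overlapped by both 129O1 lists and by neither EpiSC5 list were kept. There were 1160 of them among 48551 merged regions, 2.39% of all regions. The reverse class, held by both EpiSC5 lists alone, had 216 regions (0.445% of all regions), and 14591 regions were in all 4 lists. Presence in the H3K27ac lists chose the regions, so the H3K27ac values below are a description without a test.

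The 7 lists came from 1 ChIP-seq library each: OPC H3K27ac, OL H3K27ac and OPC SOX6 of 129O1, and OPC H3K27ac, OL H3K27ac, OPC SOX6 and OL SOX6 of EpiSC5. Both lines are epiblast stem cells from 129 mice. The labels name the strains 129SvEv and 129S1/SvImJ without tying a strain to a line, and they name no transgene or deletion in any group. OPCs were grown in medium with bFGF and PDGFA, and OLs are the O1-positive cells collected on a magnetic sorter. With 1 library per line, state and target, a difference between lines cannot be told apart from a difference between these libraries, and even all 4 H3K27ac lists, 2 against 2, could give no exact two-sided p below 0.33.

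H3K27ac is acetylation of lysine 27 on histone H3, a mark of active promoters and enhancers. OPCs are the dividing precursors of the myelin-forming OLs, and SOX6 is a SoxD transcription factor known for keeping OPCs immature. Hox genes encode transcription factors that lie in clusters and mark position along the body axis; genes at one end of a cluster are active towards the head and those at the other end towards the tail.

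The peak lists carry no sequence, and no genome of their build was used, so promoter windows stand in for the regions that contain them. The windows of 4 genes are shown because their promoters lie wholly inside the strongest or widest of the regions. Each runs from 250 bases before to 50 after the gene's start, 5′ to 3′ on the gene's strand, from RefSeq on GRCm38.p6 (the assembly also called mm10), with CpG dinucleotides in capitals.
Slitrk5, chr14:111675777-111676076, plus strand: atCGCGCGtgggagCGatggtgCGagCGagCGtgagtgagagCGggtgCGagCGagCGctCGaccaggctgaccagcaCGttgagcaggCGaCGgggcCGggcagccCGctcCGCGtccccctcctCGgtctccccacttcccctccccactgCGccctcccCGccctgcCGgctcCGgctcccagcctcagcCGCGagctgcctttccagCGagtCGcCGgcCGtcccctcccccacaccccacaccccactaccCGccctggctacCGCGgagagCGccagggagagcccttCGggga
Hoxd3, chr2:74711743-74712042, plus strand: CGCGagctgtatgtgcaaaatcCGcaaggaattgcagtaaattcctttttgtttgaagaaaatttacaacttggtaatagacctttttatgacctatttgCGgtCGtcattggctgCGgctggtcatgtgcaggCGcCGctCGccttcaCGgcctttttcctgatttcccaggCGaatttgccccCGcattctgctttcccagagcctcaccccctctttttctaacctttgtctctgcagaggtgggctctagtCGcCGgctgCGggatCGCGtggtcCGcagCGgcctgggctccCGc
Cadm2, chr16:67620859-67621158, minus strand: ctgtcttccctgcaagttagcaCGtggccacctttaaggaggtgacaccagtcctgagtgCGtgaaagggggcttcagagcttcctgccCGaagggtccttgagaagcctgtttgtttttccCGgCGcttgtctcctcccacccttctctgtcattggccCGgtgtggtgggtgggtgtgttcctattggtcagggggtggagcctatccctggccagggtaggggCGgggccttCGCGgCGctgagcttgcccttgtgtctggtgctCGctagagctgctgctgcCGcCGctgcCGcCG
Hoxa9, chr6:52227321-52227620, minus strand: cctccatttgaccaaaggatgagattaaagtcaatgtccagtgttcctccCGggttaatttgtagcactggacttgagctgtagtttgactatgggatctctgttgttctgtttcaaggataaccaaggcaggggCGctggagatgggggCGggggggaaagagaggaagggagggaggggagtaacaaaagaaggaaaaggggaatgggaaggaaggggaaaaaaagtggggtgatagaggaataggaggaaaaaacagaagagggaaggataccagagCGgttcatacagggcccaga
The windows differ in CpG content: Slitrk5 held 35 CpGs, Hoxd3 20, Cadm2 15 and Hoxa9 4.

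Most of the regions were small and weak within their own lists. Their median width was 1073 bp (quartiles 819 and 1411, range 279 to 10494), against 1290 bp over all merged regions, 2109 bp for regions in all 4 lists and 948.5 bp for the regions of EpiSC5 alone. Their median fold enrichment over background, the authors' value per peak, was 3.08 in 129O1 OPC and 3.11 in 129O1 OL, where the medians of the whole lists were 4.22 and 3.86. Their median −log10 q, the authors' measure of peak confidence, was 6.89 in OPC and 5.85 in OL against 17.6 and 10.8 over the lists. Only 68 regions (5.86%) lay above the OPC list's median −log10 q and 92 (7.93%) above the OL list's. The plot of fold enrichment in the 2 states shows a dense group between about 2 and 5 with a small number of regions well above it.

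**Figure D1:**
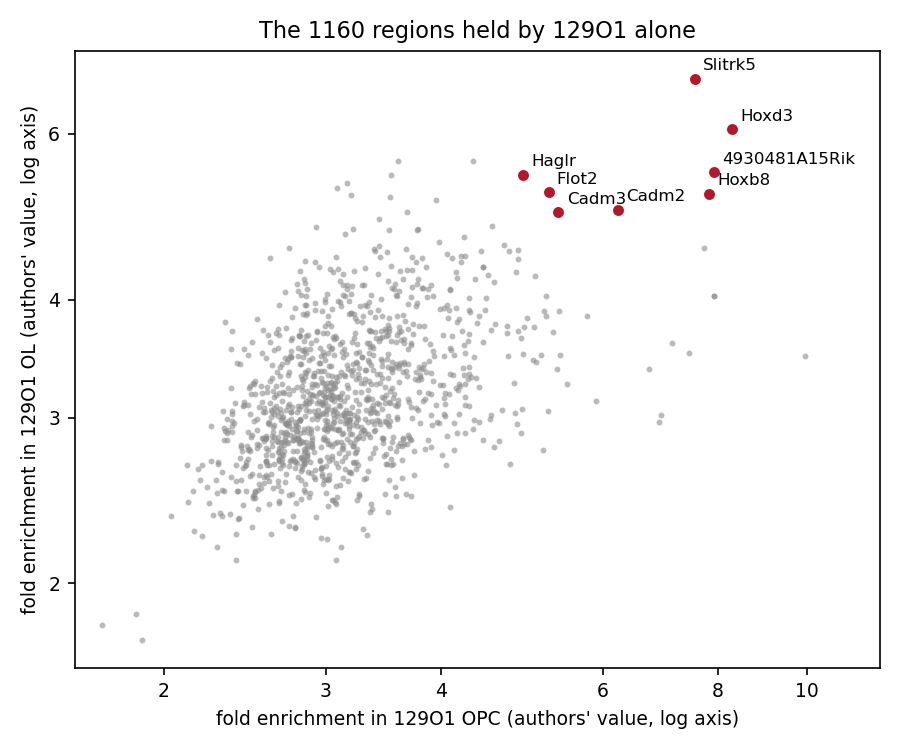
Fold enrichment over background, the authors' value per peak, in 129O1 OPC (x axis) and 129O1 OL (y axis) for each of the 1160 regions, both on log axes; each point is a region. Red points are the 8 regions whose lower value was highest, led by the Slitrk5 region at 7.56 in OPC and 6.87 in OL, while the medians were 3.08 and 3.11.

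How often a 129O1 region was missing from EpiSC5 depended on how strong it was. Of 20245 regions in both 129O1 lists, 1160 (5.73%) were absent from EpiSC5. The share was 22% (564 of 2569) where the lower −log10 q of the 2 lists was 3 to 5, 10.0% (534 of 5338) at 5 to 10, 1.14% (55 of 4822) at 10 to 20 and 0.0931% (7 of 7516) at 20 or more. The EpiSC5 lists gave the same order at lower shares: 5.58%, 1.55%, 0.0679% and 0 of 3868 regions, or 216 of 15754 (1.37%) in all. The 129O1 lists were also longer, with 29975 OPC and 33058 OL peaks against 26967 and 30443 in EpiSC5. With equal numbers of peaks taken from each list by score, 629 regions were held by 129O1 alone and 365 by EpiSC5 alone, a ratio of 1.72 in place of 5.37. Of the 629, 63 (10.0%) overlapped a peak of the full EpiSC5 lists, and the 365 were not set against the full 129O1 lists. With the higher-scoring 50% of each list the counts were 480 and 56, a ratio of 8.57, and 461 of the 480 overlapped a weaker EpiSC5 peak.

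**Figure D2:**
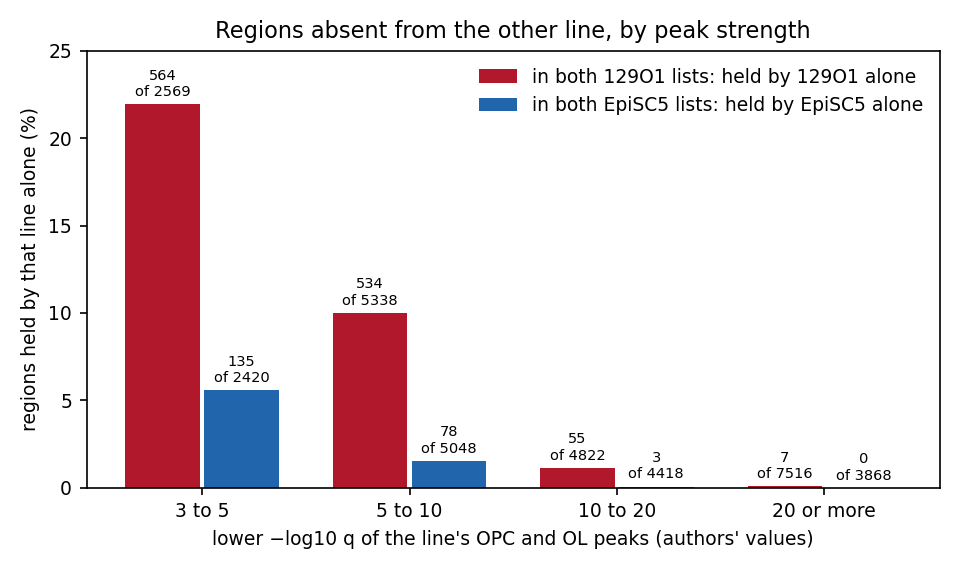
Share of the regions in both lists of a line that were absent from both lists of the other line (y axis, %), by the lower −log10 q of that line's OPC and OL peaks (x axis); red bars are 129O1, blue bars EpiSC5, and the counts stand above the bars. The share falls from 22% to 0.0931% in 129O1 and from 5.58% to 0 in EpiSC5.

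A region counted as absent had no listed peak, which does not show that EpiSC5 had no signal there. The median distance to the nearest EpiSC5 H3K27ac peak was 11.7 kb (quartiles 5.13 and 26.0 kb); 16 regions had one within 1 kb, 520 within 10 kb, and 52 had none within 100 kb. Closest to the limit, a region in Cryab, a small heat-shock protein gene, lay 54 bp from an EpiSC5 peak, and regions in Gm28455, Pnma1, Qtrt2 and Rufy1 followed at 412, 452, 588 and 638 bp. On the other side of the rule no region came as near to the limit, because merged regions hold whole peaks, and the smallest EpiSC5 overlap was 202 bp. The 5 narrowest regions with that overlap, all with an EpiSC5 OL peak, were in or nearest to Fgf20, Atrn, Sox8, Fads2 and Plekha1. Their EpiSC5 OL −log10 q ran from 4.11 at Atrn to 9.27 near Sox8. The 129O1 OPC −log10 q ran from 4.09 to 32.6 in the 5 nearest regions of the class and from 4.17 to 10.0 in these 5 outside it.

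Within 129O1 every region of the class differed in extent between the states. OPC peaks covered more of the region in 695 and OL peaks in 465, with at least a 2-fold difference in 226 and 137. Peaks of the whole 129O1 lists were also wider in OPC, with a median of 1344 bp against 1194 bp in OL. The count was not made over all regions in both 129O1 lists, so the OPC majority cannot be called particular to the class. The widest, at Hoxa9 and Hoxa10, was covered over 10494 bp in OPC and 3461 bp in OL. A region at Dapk1, which encodes a death-associated kinase, went the other way, with 871 bp in OPC and 4129 bp in OL. At Clu, which encodes the secreted chaperone clusterin, the values were 3501 bp in OPC and 1699 bp in OL, and at the acyl-CoA thioesterase gene Acot7 they were close, 4221 and 4373 bp.

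The strongest region of the class spanned the start of Slitrk5, a neuronal transmembrane gene of the SLITRK family, at chr14:111674638-111677769. It was covered over 3132 bp in 129O1 OPC with a fold enrichment of 7.56 and over 1755 bp in 129O1 OL with 6.87, and no EpiSC5 peak lay within 1108 kb. It is thus among the most isolated as well as the strongest. SOX6 peaks of 129O1 OPC overlapped it, the highest with a fold of 4.77, and neither EpiSC5 SOX6 list had one there.

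Some of the other strong regions also lay at gene starts. The region at the 5′ end of Cadm2, which encodes a synaptic cell adhesion molecule, at chr16:67617264-67621564, had a fold enrichment of 6.23 in OPC and 4.99 in OL, and its 129O1 SOX6 peak reached 11.2 where EpiSC5 had none. The nearest EpiSC5 H3K27ac peak was 5.38 kb away. Over the gene and 10 kb each side, the covered length was 18.1 kb in 129O1 OPC, 22.5 kb in 129O1 OL, 4.80 kb in EpiSC5 OPC and 4.91 kb in EpiSC5 OL, so the line difference at Cadm2 went beyond its 3 regions. A region at Cadm3, another gene of that adhesion family, had folds of 5.37 and 4.96 and lay 21.9 kb from an EpiSC5 peak. Flot2, which encodes a membrane scaffold protein, had one with 5.24 and 5.21, and a region at the transcript 4930481A15Rik had 7.92 and 5.47. Regions in Unc5a, a netrin receptor gene, and Bank1, a B-cell scaffold gene, lay within the gene and overlapped no promoter window. They had folds of 4.69 and 4.58 and of 4.55 and 4.79. Some strong values stood in 1 state alone: a 3504 bp region at the predicted gene Gm39469 had a fold of 9.96 in OPC and 3.49 in OL.

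The Hox clusters held the most concentrated group. Of 39 Hox genes, 16 (41.0%) had a region of the class within the gene or 10 kb of it, beside 1042 of 20665 protein-coding genes (5.04%). Neighbouring Hox genes share regions, and the 16 genes rested on 8 distinct regions. No Hox gene had a region of EpiSC5 alone, but only 154 of all protein-coding genes (0.745%) had one, so none among 39 is close to that share. With equal list lengths the count was 10 Hox genes, and counting the gene body alone gave 9.

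In the Hoxd cluster acetylation was listed in 129O1 and not in EpiSC5. The covered length of the cluster was 8.46 kb in 129O1 OPC, 5.78 kb in 129O1 OL, and 0 kb in both EpiSC5 lists. The largest region, at the start of Hoxd3 (chr2:74711475-74716406), was 4932 bp wide, with a fold enrichment of 8.29 in OPC and 6.07 in OL and a −log10 q of 62.3 and 29.0. It contains the Hoxd3 promoter window printed above. A region at Hoxd8, 2028 bp wide, had folds of 5.20 and 4.04, and one in the antisense transcript Haglr, 1180 bp wide, had 4.91 and 5.43. SOX6 was listed there in the same line: 3 peaks of the 129O1 OPC SOX6 list fell in the cluster and none of either EpiSC5 SOX6 list. The 129O1 SOX6 fold was 12.7 at Hoxd3 and 6.49 at Hoxd8.

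In Hoxa and Hoxb the lines shared the stretch around the genes of low number and differed beyond it. A 5166 bp region over Hoxa3 was in all 4 lists and was covered over 3446 bp in 129O1 OPC, 1018 bp in 129O1 OL, 5071 bp in EpiSC5 OPC and 1743 bp in EpiSC5 OL. The large region over Hoxa5, Hoxa6, Hoxa7 and Hoxa9, was covered over 20872 and 12814 bp in 129O1 OPC and OL, and over 1196 and 0 bp in EpiSC5 OPC and OL. That short EpiSC5 overlap kept it out of the class. The region after it, over Hoxa9 and Hoxa10 (chr6:52224351-52234844), was the widest of the class but weak, with a fold enrichment of 3.23 in OPC and 2.76 in OL.

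Hoxb followed the same layout. Around Hoxb2 an 18521 bp region was covered over 13203, 10712, 18247 and 4647 bp in 129O1 OPC, 129O1 OL, EpiSC5 OPC and EpiSC5 OL. Between Hoxb3 and Hoxb8 lay 4 regions of the class. The strongest, over Hoxb7 and Hoxb8 (chr11:96283053-96287221), was 4169 bp wide with folds of 7.82 in OPC and 5.18 in OL, and the one at Hoxb6 was 3728 bp wide with 3.54 and 3.36. Those at Hoxb5 and Hoxb3 were smaller, 466 and 1323 bp. In total 129O1 did not exceed EpiSC5 everywhere: over the Hoxb cluster the EpiSC5 OPC list covered 32.4 kb against 29.7 kb in 129O1 OPC.

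Counted by gene body, 17 Hox genes were overlapped by a peak in 129O1 OPC, 16 in 129O1 OL, 8 in EpiSC5 OPC and 7 in EpiSC5 OL. In that count 9 genes (Hoxa6, Hoxa7, Hoxa9, Hoxb5, Hoxb6, Hoxb7, Hoxb8, Hoxd3 and Hoxd8) were overlapped in both 129O1 lists and neither EpiSC5 list. The reverse held for 1 gene, Hoxa4, where EpiSC5 peaks overlapped 0.254 kb of the body in OPC and 0.208 kb in OL. Those peaks belonged to a 1051 bp region in all 4 lists, in which the 129O1 peaks lay outside the gene body. Hoxc had no peak in any H3K27ac list or SOX6 list, and 21 Hox genes had none over their body in any H3K27ac list.

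**Figure D3:**
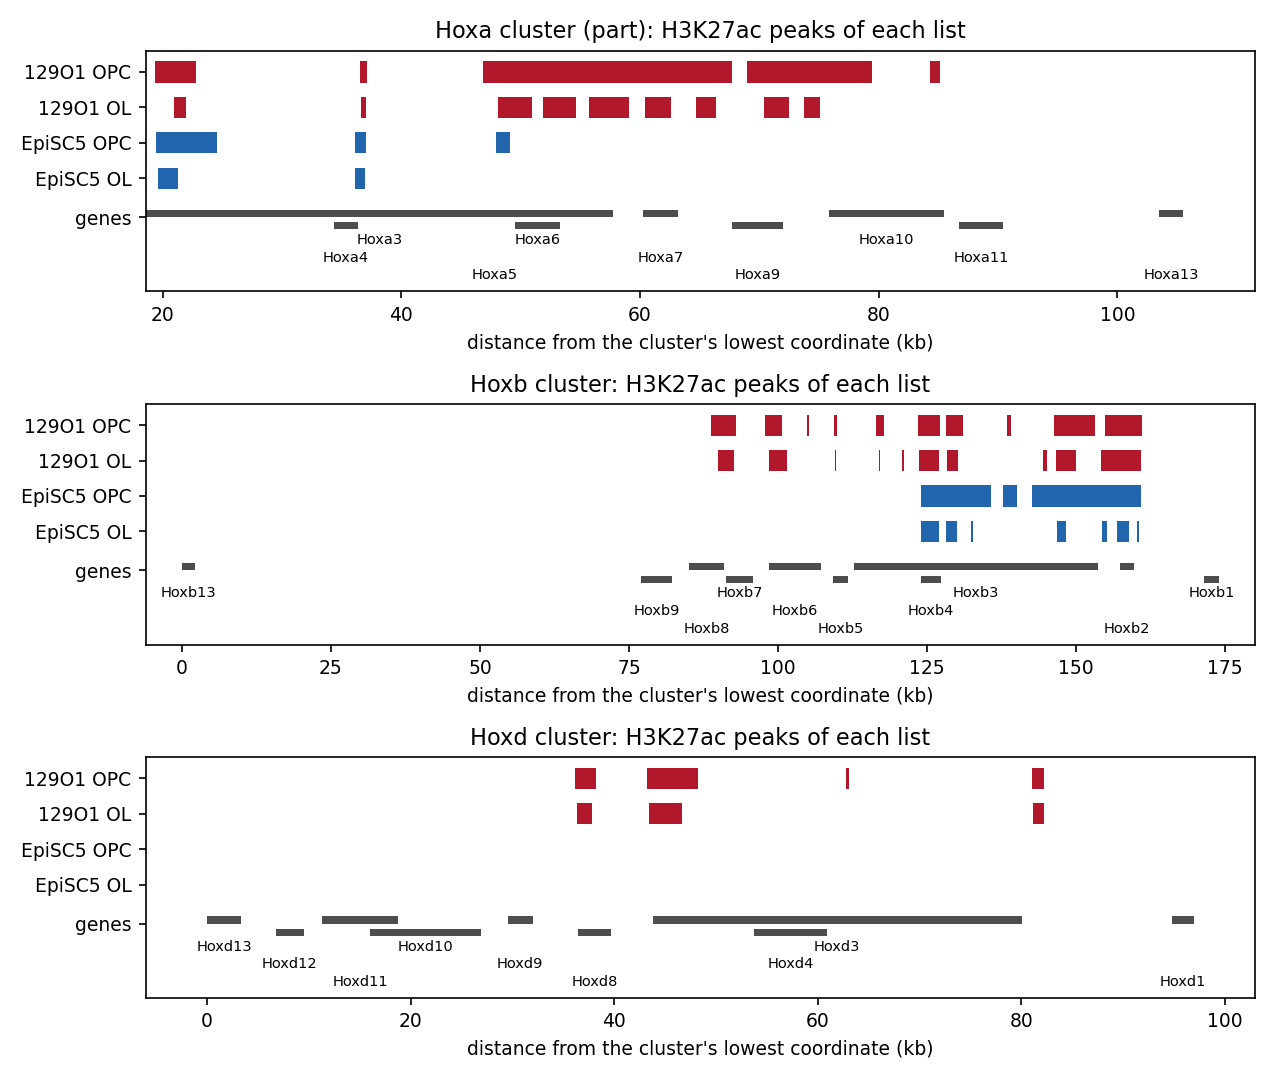
H3K27ac peaks of each list over part of the Hoxa cluster and the Hoxb and Hoxd clusters, by distance from the cluster's lowest coordinate (x axis, kb); rows are the 4 lists (red 129O1, blue EpiSC5) and the gene bodies in grey. Peaks over Hoxa3 and around Hoxb2 to Hoxb4 appear in both lines, those over Hoxa7, Hoxa9 and Hoxb5 to Hoxb8 in 129O1, and Hoxd has peaks in 129O1 alone.

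One of the widest regions also lay in Skap2, an adaptor gene beside the Hoxa cluster, with 3436 bp in OPC and 2013 bp in OL and folds of 4.38 and 3.78. Inside the Hoxa9 and Hoxa10 region sits the hairpin of Mir196b, and 2 further miRNA hairpins, Mir128-2 and Mir6921, lie in other regions of the class, 3 of 919 hairpins on these chromosomes, while 159 lie in some merged region. Both mature sequences of Mir196b and the 3p one of Mir128-2 are shown, 5′ to 3′, with the seed (bases 2 to 8) in capitals, since miR-196 is a known regulator of Hox transcripts and miR-128 is abundant in brain.
miR-196b-5p: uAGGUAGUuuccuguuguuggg
miR-196b-3p: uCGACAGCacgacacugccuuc
miR-128-3p: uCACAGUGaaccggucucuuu
The seeds of these miRNAs differ from one another. The data are peaks over their genes and hold no measure of the miRNAs themselves.

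Counts of genes of the oligodendrocyte lineage are set beside the 5.04% of all protein-coding genes. Among 25 OPC genes 2 (8.0%) had a region of the class, Nfia and Xylt1, and among 28 oligodendrocyte and myelin genes 1 (3.57%), Itpr2. Among 26 lineage transcription factors there were 4 (15.4%), namely Sox6, Nfia, Nfix and St18. Sox6, Nfia and St18 are 570, 541 and 374 kb long and Nfix 96.5 kb, and 19.4% of protein-coding genes above 200 kb had a region. The St18 region lay 5.44 kb outside the gene. Sox6 itself held 4 regions of the class among 39, and peaks over it and 10 kb each side covered 76.9 kb in 129O1 OPC, 78.9 kb in 129O1 OL, 57.2 kb in EpiSC5 OPC and 61.2 kb in EpiSC5 OL. The 4 regions thus add to a gene that was widely acetylated in both lines. The region in Nfix, a nuclear factor I gene of glial differentiation, was covered over 1607 bp in OPC and 253 bp in OL and held a 129O1 SOX6 peak with a fold of 9.59. Itpr2, an inositol trisphosphate receptor gene used as a marker of newly forming OLs, had folds of 3.82 and 4.11.

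Patterning genes outside the Hox clusters gave 1 of 38 forebrain and midbrain genes (2.63%) and 3 of 25 dorsoventral genes (12%), beside 5.04% of all protein-coding genes. Pax5, the midbrain-hindbrain boundary factor, was the forebrain and midbrain gene (folds 3.53 in OPC and 2.71 in OL). Gli3, Gsx1 and Foxp1 were the dorsoventral genes, with a region each. At Gsx1, a homeobox gene of dorsal progenitors, the single merged region was covered over 1148 bp in 129O1 OPC and 329 bp in 129O1 OL, and it held SOX6 peaks of all 3 SOX6 lists (folds 4.85 in 129O1 OPC, 3.27 in EpiSC5 OPC and 3.58 in EpiSC5 OL). At Gli3, a transcription factor of hedgehog signalling, the region was covered over 1556 and 2817 bp, and the gene also held a region of EpiSC5 alone.

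Interferon response genes had a region in 7 of 33 cases (21.2%, beside 5.04% of all protein-coding genes), from 5 distinct regions. One lay at the edge of Ifit2, an interferon-induced RNA-binding protein gene, on the side of Ifit3 and outside any promoter window, with 1577 bp in OPC and 1147 bp in OL and folds of 4.40 and 3.84; EpiSC5 OPC covered 2.36 kb elsewhere around Ifit2 and EpiSC5 OL 0 kb. Another lay at Gbp7, a guanylate-binding protein gene, near Gbp5. The one counted for Isg15 lies inside the neighbouring gene Agrn, and the one counted for Aim2 is the Cadm3 region above. Irf9, a transcription factor of interferon signalling, had a single merged region, of 556 bp. H2-D1 and H2-Q4, of 28 antigen presentation genes, had regions with folds of 3.69 and 3.42 and of 4.10 and 3.34, and these belong to a family of near-identical class I genes, so their placement is uncertain.

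Imprinted genes, expressed from 1 parental copy, had a region in 3 of 33 cases (9.09%, beside 5.04% of all protein-coding genes). The region at Ndn, the necdin gene, was the only merged region within 10 kb of it and had folds of 5.07 in OPC and 3.43 in OL. The Grb10 region, in a growth factor adaptor gene, had 3.82 and 4.43.

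Marker genes of other cell types are likewise to be read against 5.04% of all protein-coding genes. Regions lay at 2 of 14 astrocyte genes (Slc1a2 and Aldh1l1), 1 of 17 neuron genes (Rbfox3) and 1 of 11 Schwann and neural crest genes (Pmp22). They lay at 0 of 12 microglia, 0 of 16 pluripotency and 0 of 15 mesenchyme genes. The region counted for Aldh1l1 lies inside the neighbouring gene Slc41a3. The single growth factor signalling gene was Erbb4 of 30, 1 of 12 housekeeping genes (Actb) had one nearby, and 4 of 34 clustered protocadherins shared 1 region. None of 21 cell cycle genes had one. As a check of the labels, bodies of all 6 defining OPC markers carried H3K27ac peaks in each of the 4 lists, those of 5 oligodendrocyte markers in 3, 5, 3 and 5 cases in 129O1 OPC, 129O1 OL, EpiSC5 OPC and EpiSC5 OL, and those of 6 pluripotency markers in 0 in every list. Astrocyte marker bodies were overlapped in 6, 6, 4 and 5 of 6, neuron in 5, 4, 5 and 5, Schwann and neural crest in 4 in each list, mesenchyme in 3, 2, 3 and 0, and microglia in 2, 3, 2 and 3. Of the 6 astrocyte markers, 2 (Slc1a2 and Aldh1l1) had a region of the class in the gene or within 10 kb. Over the 6 astrocyte marker bodies the peaks covered 20.2 kb in 129O1 OPC, 33.3 kb in 129O1 OL, 18.4 kb in EpiSC5 OPC and 16.0 kb in EpiSC5 OL. The part of other cells in these regions was not tested.

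Long genes collected more regions. The share of protein-coding genes with a region was 2.60% below 10 kb of length, 3.97% from 10 to 50 kb, 8.65% from 50 to 200 kb and 19.4% above 200 kb, and 945 of the 1042 genes had a single one. Hox genes are short, with a median length of 3.74 kb. Zmiz1, a transcriptional coregulator gene, had the most with 5 of its 24 merged regions, and its covered length was 23.4 and 57.0 kb in 129O1 OPC and OL and 16.6 and 34.9 kb in EpiSC5. Rora, an orphan nuclear receptor gene, Npas3, a brain bHLH factor gene, and Negr1, a neuronal adhesion gene, had 4 each. Negr1 peaks covered 9.68 and 17 kb in 129O1 OPC and OL against 4.26 and 5.90 kb in EpiSC5. Slc7a2, a cationic amino acid transporter gene, differed most completely among these outside the Hox clusters, with 3 of its 5 merged regions in the class and 4.89 and 3.63 kb in 129O1 against 0.411 kb in EpiSC5 OPC and 0 kb in EpiSC5 OL. Slc4a4, Wwc1, Ddah1, Cdh20 and Camta1 also had 3 each.

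Most of the regions stood alone. Chained where neighbours lay within 100 kb, they formed 1020 stretches, of which 904 were single regions, 98 were pairs and 18 had 3 or more, with 60 regions in all. In 5 of the 18 no region with an EpiSC5 peak lay between the ends: Hoxb, Hoxd, Slc7a2, the transcript Banf2os, and Ice2 with Anxa2. Zmiz1 had 5 regions in 126 kb with 8 EpiSC5-held regions among them, and Adgrb2 with Col16a1 had 4 in 88.4 kb. Another 5, only 1841 bp in total, lay in 31.1 kb of the interferon zeta gene cluster on chromosome 4, with folds of 2.34 to 3.11; these genes are near-identical copies and the placement of their peaks is uncertain. With equal list lengths 3 stretches of 3 or more were found.

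The chromosomes were not equal. The class made up a median of 2.43% of merged regions per chromosome, from 1.22% on chromosome 15 (26 of 2138) to 3.28% on chromosome 17 (69 of 2104). The lengths of the H3K27ac lists, from which the class was drawn, had the same extremes. Per EpiSC5 peak, 129O1 had 0.989 OPC and 0.979 OL peaks on chromosome 15, and 1.19 and 1.20 on chromosome 17. The medians over chromosomes were 1.11 and 1.08. The SOX6 lists, which did not enter the rule, differed by chromosome too: the number of 129O1 OPC SOX6 peaks per EpiSC5 OPC SOX6 peak was 1.47 over all, 1.13 on chromosome 15, 2.66 on chromosome 17 (1521 against 572), 1.76 on chromosome 3, and at most 1.51 on the others. On chromosome 17 from 20 Mb the class made up 3.91% of regions (64 of 1638) with a SOX6 ratio of 2.97, and below 20 Mb 1.07% (5 of 466) with 1.87. On chromosome 3 from 140 Mb it made up 4.98% (15 of 301) with a SOX6 ratio of 4.98, and below that 2.20% with 1.5. The H3K27ac peak ratios from 140 Mb were 1.71 in OPC and 1.35 in OL, and below it 1.12 and 1.02. Negr1, Ddah1 and Gbp7 lie in that end of chromosome 3, and H2-D1 and H2-Q4 in that part of chromosome 17. The 2 split points were chosen after the values were seen, and copy number or sequence differences between the lines were not tested. Without chromosome 17 and chromosome 3 from 140 Mb, 1076 regions remained.

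**Figure D4:**
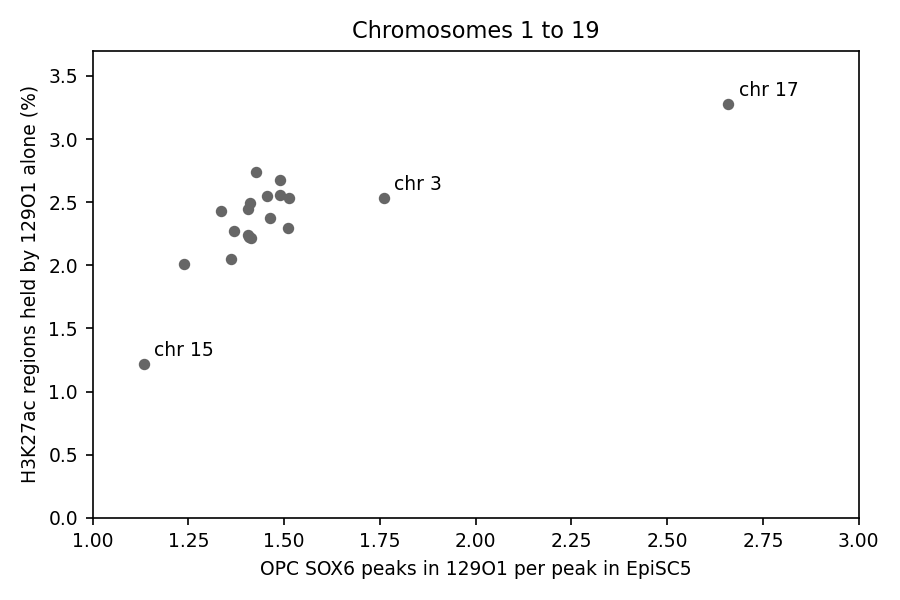
Share of merged H3K27ac regions held by 129O1 alone (y axis, %) against the number of OPC SOX6 peaks in 129O1 per peak in EpiSC5 (x axis); each point is 1 of chromosomes 1 to 19. Chromosome 17 stands at 3.28% and 2.66 and chromosome 15 at 1.22% and 1.13.

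SOX6 was the readout that the rule did not use. Of the 1160 regions, 266 (22.9%, exact 95% interval 20.5 to 25.5%) overlapped a 129O1 OPC SOX6 peak, beside 33.1% of all merged regions. Fewer overlapped an EpiSC5 OPC SOX6 peak, 121 (10.4%, 8.73 to 12.3%, beside 23.9% of all), or an EpiSC5 OL SOX6 peak, 8 (0.690%, 0.298 to 1.35%, beside 5.82%). The intervals cover counting error only, regions are not replicates of a line, and no test was made with 1 library per list. The regions of EpiSC5 alone went the other way between the OPC lists by few regions, with 26.4% for 129O1 (57 of 216) and 29.6% for EpiSC5 (64 of 216). Of these 216, 15 had SOX6 in 129O1 OPC alone and 22 in EpiSC5 OPC alone. Regions in all 4 lists had 57.8% and 43.3%.

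The ratio between lines was therefore larger in the class than around it. Regions with a SOX6 peak in 129O1 OPC were 2.20 times as many as those with one in EpiSC5 OPC, against 1.39 over all regions, 1.33 over regions in all 4 lists and 0.891 over the regions of EpiSC5 alone. By region, 114 had SOX6 in both OPC lists, 152 in 129O1 alone, 7 in EpiSC5 alone and 887 in neither, so 94.2% of the EpiSC5 sites and 42.9% of the 129O1 sites were shared. SOX6 folds in 129O1 had a median of 6.86 where EpiSC5 also had a peak and 4.47 where it had none. With equal numbers of OPC SOX6 peaks taken by score, the 129O1 share was 15.9%, beside 24.4% of all regions.

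Among regions of like width the SOX6 shares lay closer together. Among regions whose width lay between the quartiles of the class, the shares were 24.9% in 129O1 OPC, 13.4% in EpiSC5 OPC and 0.515% in EpiSC5 OL for the class, and 26.3%, 18.7% and 2.01% for all regions. At a lower −log10 q under 10, the class had 22.1% and 10.4% in the 2 OPC lists, and the regions in both 129O1 lists that EpiSC5 also held had 50.9% and 38.2%. At 10 or more, the 62 regions of the class had 37.1% and 11.3%, against 56.1% and 40.3%. The 129O1 share of these 62 was thus above the 33.1% of all merged regions of any strength, unlike that of the whole class. Without chromosome 17 and the end of chromosome 3 the shares were 22.6% and 10.7%.

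**Figure D5:**
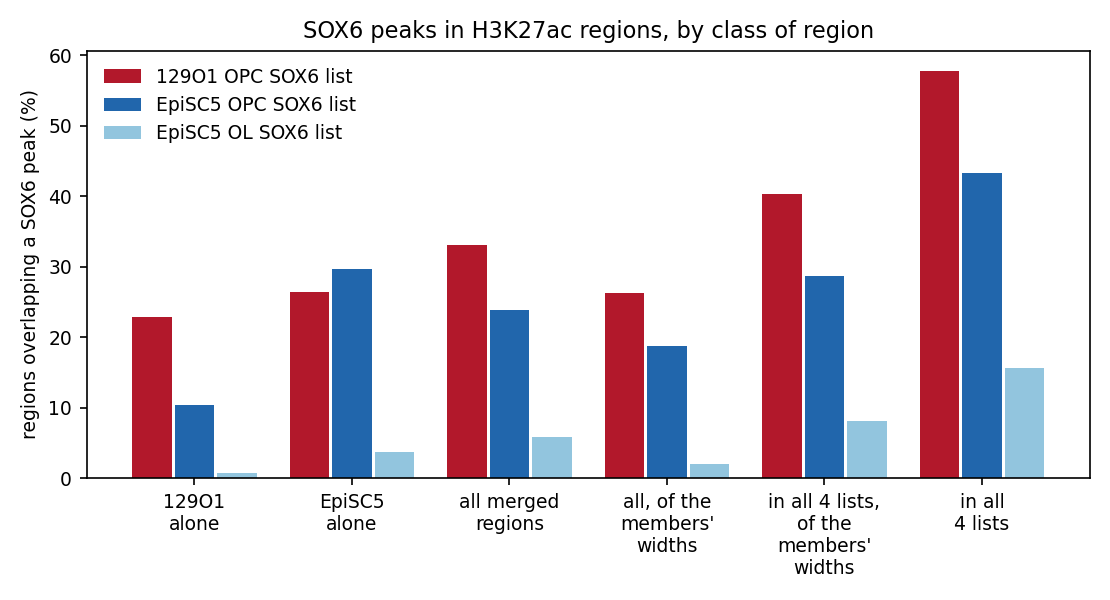
Share of regions overlapping a SOX6 peak by at least 1 bp (y axis, %), for 6 classes of merged H3K27ac regions (x axis) and the 3 SOX6 lists (colours); each bar is 1 library. In the regions of 129O1 alone the shares are 22.9%, 10.4% and 0.690%, and in those of EpiSC5 alone the EpiSC5 OPC bar is the tallest at 29.6%.

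The regions named next for their OPC SOX6 folds had SOX6 in both lines although H3K27ac was listed in 1. Those picked by their EpiSC5 fold held an EpiSC5 SOX6 peak by that choice. Of the 266 regions with a 129O1 OPC SOX6 peak, 152 had none in EpiSC5 OPC, with 129O1 folds up to 13.8. A region in Trak1, a gene for mitochondrial transport, had SOX6 folds of 19 in 129O1 OPC, 12.8 in EpiSC5 OPC and 7.12 in EpiSC5 OL, while its H3K27ac folds in 129O1 were 3.03 in OPC and 3.17 in OL. Regions at Gm15441 and Brinp1, the latter encoding a neural cell cycle inhibitor, had 17.1 and 11.9 and 16.7 and 13.5. A region on chromosome 17, 346 kb from Rgmb, had 19.9 and 9.89, one near Hes2 had 17.4 and 15.5, and one near Dock10 had 14.6 and 13.8. SOX6 peaks of EpiSC5 were thus listed at these sites without a listed EpiSC5 H3K27ac peak.

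EpiSC5 OL SOX6 peaks fell in 8 regions. Besides Trak1 and Gsx1 the highest folds were at Gpatch4 (6.89), Thg1l (6.88), a tRNA histidine guanylyltransferase gene, and the tRNA gene n-TDgtc7 (5.25). At Gpatch4 and n-TDgtc7 neither OPC list had a SOX6 peak. The tRNA genes have near-identical copies, which makes the placement of their peaks uncertain.

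The regions were less often at promoters than merged regions in general, in shares not matched for width or peak strength. A promoter window was overlapped by 135 regions (11.6%), beside 19.3% of all merged regions, and a gene body by 78.5%, beside 78.0%. The regions of EpiSC5 alone had still lower shares, 4.63% at promoters (10 of 216) and 61.6% in gene bodies, so a low promoter share was not particular to 129O1. Regions in all 4 lists had 47.5% and 88.8%. The 135 regions touched windows of 145 genes, 112 of them protein-coding. These windows had a median of 13.5 CpGs, below the 23 in windows of regions in all 4 lists and above the 7 over all 31365 windows and the 4 in windows with no H3K27ac region. The Slitrk5 window with 35 and the Hoxd3 window with 20 thus lay above the median of their class.

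Motif letters were searched in the promoter windows on both strands. The E-box CAGCTG was in 19.6% of the windows of the class and 16.3% of all windows, the SOX motif AACAAAG in 6.55% and 5.81%, the SOX motif ACAATG in 8.93% and 12.2%, the E-box CATATG in 1.79% and 3.71%, the AP-1 motif TGANTCA in 4.76% and 7.85% and the POU motif ATGCAAAT in 2.98% and 1.75%. In that order the shares of the class rest on 33, 11, 15, 3, 8 and 5 of 168 windows, so most are small counts. The palindromic NFI motif was in none of the 168 windows of the class and 0.0383% of all. None of the 7 was in the 4 windows printed above. A match is a run of letters and no measure of binding.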

How the data were processed

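ChIP-seq peak lists of 7 libraries were used; both input samples, whose title says embryonic stem cells where other labels say OPCs, were left out. Reads were mapped to mm10, and Bowtie2 2.3.2, Trim Galore 0.3.1, bedtools, deepTools and Picard are named, per the submitters' processing notes. For the peak caller and its control: not given in the sources used here. The deposited score of a peak is its −log10 q scaled to a whole number. The authors' fold enrichment (a ratio over background), −log10 p and −log10 q per peak were used only to describe, rank and filter peaks within a list. The lists hold no counts, so depth is unknown, and 50 and 75 bp libraries from 2 sequencers are not told apart by the labels. Between 6 and 37 of each list's running peak numbers were absent, and 2 of the 1160 regions, at Gabbr1 and Olfr95 on chromosome 17, lay between the peaks on either side of an absent EpiSC5 number.

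Regions were merged in Python 3.11.15 (pandas 2.3.3, numpy 2.4.6), tested on simulated intervals and checked with bedtools 2.31.1. Genes, promoters and miRNAs came from RefSeq on GRCm38.p6, the same assembly; a gene was counted with 10 kb each side. Exact binomial intervals (Clopper-Pearson, 95%) came from scipy 1.17.1. No group test was run. The regions, gene lists and naming rule were chosen with earlier results of these data known. Named were the 10 widest regions, the 10 with the highest lower fold, the 5 nearest each side of the rule, the 5 highest SOX6 folds per list (some items these rules or the Hox list would name are not reported here), the 15 genes with most regions, up to 6 members per gene list, and the 5 largest stretches; Slitrk5, Hoxd3, Cadm2 and Hoxa9 promoters, the regions at both sides of an absent number, and the other stretches without EpiSC5 regions were chosen after their values were seen.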

Additional observations from a re-analysis of the deposited data

How the results depend on the processing

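No paired analysis was possible because each line, state and target had 1 library, and no result came from a test; nor could a replicate be left out. The number of regions stayed within 1.5 times of 1160 with absence asked for within 1 kb, with peaks joined within 1 kb, and without chromosome 17 and the end of chromosome 3. With the OPC lists alone it was 6066 and with the OL lists alone 8297 (median widths 761 and 725 bp, EpiSC5 OPC SOX6 shares 13.2% and 13.1%, chromosome 17 shares 22.1% and 25.5%, chromosome 15 shares 13% and 16.2%, 3707 and 5626 genes, 456 and 900 stretches). A peak in 1 state of 129O1 was then enough, and absence was asked of 1 state of EpiSC5. Of these regions, 1229 (20.3%) and 3609 (43.5%) overlapped an EpiSC5 peak of the other state. Asking each 129O1 list to cover 50% of a region left 765 (chromosome 17 2.14%, chromosome 15 0.608%), and asking for no EpiSC5 peak within 10 kb left 640 (SOX6 26.4% in 129O1 OPC and 12.8% in EpiSC5 OPC, chromosome 17 1.57%, chromosome 15 0.655%, 536 genes, 6 stretches).

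Peak strength mattered most. With equal numbers of peaks per list 629 regions were found, of which 566 overlapped one of the 1160 and 63 a peak of the full EpiSC5 lists. The 629 had a median width of 1169 bp, 1.93% on chromosome 17, 0.617% on chromosome 15, 641 genes, 10 Hox genes and 3 stretches. The higher-scoring 50% of the 129O1 lists against the full EpiSC5 lists left 19 regions, with a median width of 1359 bp, 0.117% on chromosome 17, 0% on chromosome 15, 44 genes, 7 Hox genes and 0 stretches. Their SOX6 shares were 42.1%, 15.8% and 5.26% in 129O1 OPC, EpiSC5 OPC and EpiSC5 OL, beside 36.1%, 26.7% and 6.83% of all regions. The first was above all regions, but these include weaker ones, and the 19 were not set against regions of like strength. With the higher-scoring 50% of all 4 lists there were 480, but 461 of these overlapped a weaker EpiSC5 peak; their median width was 1647.5 bp, their SOX6 shares 46.0%, 26.0% and 4.79% (all regions 47.2%, 34.8% and 11.1%), with 619 genes, 7 Hox genes and 5 stretches. Added after seeing the data, a lower −log10 q of 10 or more left 62 regions, with a median width of 1358.5 bp, 0.143% on chromosome 17 (0.128% over all), 0% on chromosome 15, 85 genes, 7 Hox genes and 0 stretches. Their SOX6 shares were 37.1% in 129O1 OPC and 3.23% in EpiSC5 OL, beside 33.1% and 5.82% of all regions of any strength. Both lay below the 56.1% and 17.4% of regions of that strength in both 129O1 lists that EpiSC5 also held.

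With the 1160 regions kept, the gene body alone gave 9 Hox genes, and 50 kb each side gave 26 Hox genes and 2158 protein-coding genes. Gaps of up to 200 kb gave 36 stretches. The higher-scoring 50% of each SOX6 list gave 11.4% in 129O1 OPC and 5.43% in EpiSC5 OPC, equal numbers of OPC SOX6 peaks gave 15.9% in 129O1 OPC, and regions of the quartile widths gave 13.4% in EpiSC5 OPC. In each of these settings the 129O1 OPC SOX6 share was above the EpiSC5 OPC share.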

Other observations

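Of the 7 regions with an EpiSC5 OPC SOX6 peak and no 129O1 OPC SOX6 peak, the one in Vstm4 had the highest H3K27ac fold in 129O1 OPC, 4.83 with 4.28 in OL, and the one near Nnmt the highest in 129O1 OL, 4.77 with 2.92 in OPC. Their EpiSC5 OPC SOX6 folds were 4.36 and 5.70. The others lay in Slc2a13, Rubcn, Csmd1 and Opcml and near Ntpcr, with EpiSC5 OPC SOX6 folds of 3.06 to 4.42. These regions were chosen after their values were seen.

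The 19 regions whose peaks lay in the higher-scoring 50% of both 129O1 lists included those at Slitrk5, Hoxd3, Haglr, Hoxb8 with Hoxb7, Cadm2, Cadm3, Flot2, Thg1l, H2-D1 and 4930481A15Rik, and also regions in Acvr1, a receptor gene of BMP signalling, Cdh13, a cadherin gene, and Prdm16, a transcription factor gene. The Acvr1 region had H3K27ac folds of 4.36 in OPC and 4.21 in OL and SOX6 folds of 11.4 in 129O1 OPC and 6.33 in EpiSC5 OPC.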
